A study of Sus scrofa with 12 samples.

Results

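CD59, CD46 and CD55 encode membrane-bound regulators of complement. The chromatin accessibility around these 3 of 19550 protein-coding genes was compared between the longissimus dorsi muscle of Luchuan and Duroc pigs. A peak interval was counted for a gene when its midpoint lay in the gene body of Sscrofa11.1 or within 25 kb of it. This gave 48 of the 217213 deposited intervals, 28 for CD59, 20 for CD46 and none for CD55. Overlapping intervals that were called in both breeds were merged and represented by the longest, which left 32 of 140081 regions, 19 for CD59 and 13 for CD46. The members were chosen by their role and CD59, in addition, by the Luchuan and Duroc read counts of these same intervals, so its values are a description and none is tested.

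The study compared a Chinese breed that deposits much fat, Luchuan, with a lean breed, Duroc. ATAC-seq, in which a transposase cuts open DNA and the fragments are sequenced, was performed on muscle of 3 boars of each breed, all aged 180 days, kept under the same conditions and fasted overnight before death. The table holds 1 read count per interval and breed and names no animal, so no value has a spread between boars and no test between breeds was possible. Muscle is a mixture of fibers, vessels, connective tissue, fat and blood cells, and in such a bulk sample more cells with an open site and a more open site per cell cannot be told apart.

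The complement system marks and kills microbes through a cascade of plasma proteins that splits C3 and C5 and ends in a pore, the membrane attack complex. Host cells carry regulators that stop the cascade on their own surface. CD55 speeds the decay of the enzymes that split C3 and C5, CD46 is a cofactor for the cleavage of deposited C3b and C4b by factor I, and CD59 blocks the last step by keeping C9 from completing the pore. CD59 and CD55 are held in the membrane by a glycosylphosphatidylinositol (GPI) anchor, whereas CD46 spans the membrane, and CD59 is found on most cells, muscle fibers and endothelium included.

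The regions of the table held 20759894 Duroc and 13746020 Luchuan reads, with a median of 61 and 38 per region. Luchuan counts were multiplied by 1.48. This factor was set from the median log2 ratio (Luchuan over Duroc) of the 68776 common regions, with 1 read added to each unscaled count. With 1 read added after scaling instead, as for the single ratios below, the median of these regions was -0.005. Each ratio is given with a 95% Clopper-Pearson interval, which covers counting error only and no spread between boars. It takes the reads as independent, and any copies of 1 molecule among them would make it too narrow. On this scale 7.11% of all regions were 2-fold or more higher in Luchuan and 5.7% in Duroc, and over the 102248 regions of at least 50 reads these shares were 2.4% and 5.4%. Of the regions past 2-fold 55.5% were higher in Luchuan, a share that was 36.1% when the clean reads of the libraries set the factor, 42.7% with a factor that varied with the signal and 10.8% without scaling. As a check of the tissue, the 88 regions around the fiber genes ACTA1, CKM, MYLPF, TNNT3 and DES held 897 Duroc and 518 Luchuan reads per kb, against 417 and 276 over all regions. The windows of 4 hepatocyte genes, at 393 Duroc reads per kb in 8 regions, did not stand below all regions, although ALB had only 1 region with 57 reads.

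CD59 lies on chromosome 2 from 27186587 to 27207303. Its 19 regions covered 6791 bases and held 2270 Luchuan and 2015 Duroc reads before scaling, so that more reads came from the breed with fewer reads in the table. After scaling, the summed accessibility was 1.66-fold higher in Luchuan, a log2 ratio of 0.73 (0.65 to 0.82). All 19 regions were higher in Luchuan, from 0.07 to 2.95 on the log2 scale with a median of 0.92, where the median of all regions was -0.02. The direction of the weakest of them depended on the scaling, with 15 of 19 higher in Luchuan when the clean reads of the libraries set the factor and 10 of 19 without scaling. Of the 19 regions, 8 were 2-fold or more higher in Luchuan and none in Duroc, where 7.11% of all regions were higher in Luchuan by this rule. Of the 17 with at least 50 reads, 6 were, where the background is 2.4%. The counting interval lay above 0 for 12 of the 19 and below 0 for none, where 13.4% of all regions lay above and 15.7% below. The summed Duroc reads ran at 297 per kb of region and the Luchuan reads, not scaled, at 334 per kb.

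**Figure D1:**
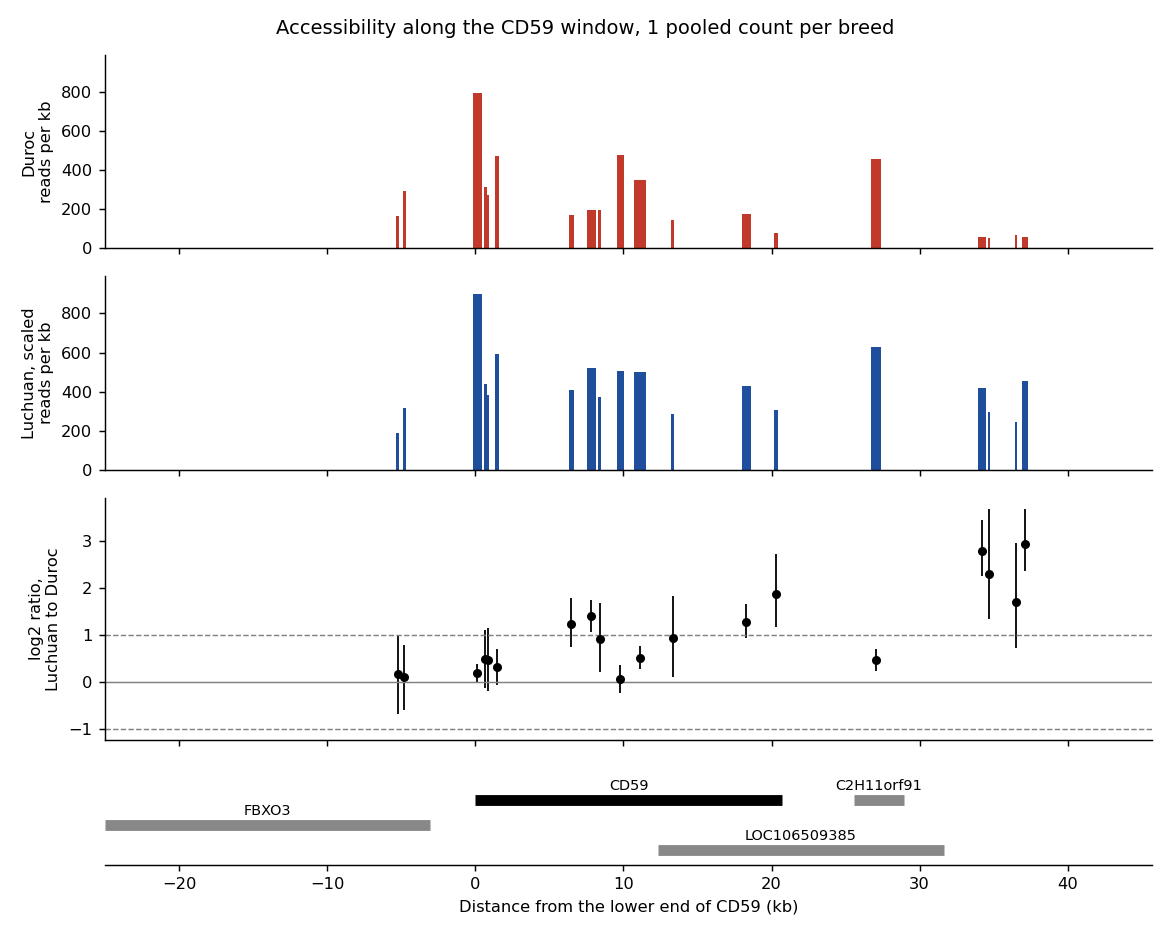
The x axis gives the distance in kb from the lower end of CD59, and each bar is 1 region at its true width, in reads per kb for Duroc (red) and for Luchuan after scaling (blue). The points give the log2 ratio of Luchuan to Duroc with the 95% interval for counting error, dashed lines mark 2-fold, and the gene models are drawn at the bottom. The ratio was 0.18 at the lower end of the gene, reached 1.87 near its upper end and lay between 1.71 and 2.95 in the 4 regions farthest to the right.

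The strongest region of CD59 covered its lower end, which here means the end with the smaller coordinate, from 27186406 to 27187005. It held 475 Duroc and 366 Luchuan reads. The ratio there was 0.18 (-0.02 to 0.38), so a difference between the breeds was not detectable at this depth. With 792 Duroc reads per kb this region was stronger than 96.0% of all regions. The annotation used here gives no strand, exons or transcription start sites, and whether this end holds the promoter was not determined. Its second interval, which ends at 27186975, gave 460 Duroc and 353 Luchuan reads.

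Another 3 regions followed inside the gene within 2 kb of that end. From 27187199 to 27187349 there were 47 Duroc and 45 Luchuan reads, a ratio of 0.49 (-0.12 to 1.12). From 27187380 to 27187529 the counts were 41 and 39, a ratio of 0.48 (-0.18 to 1.16). The common region from 27187906 to 27188175 held 127 and 108 reads, a ratio of 0.33 (-0.06 to 0.71). Each of these intervals included 0. Summed over the 4 regions at this end, 690 Duroc and 558 Luchuan reads gave 0.25 (0.09 to 0.42), a 1.19-fold difference.

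Deeper in the gene body the accessibility was higher in Luchuan by a larger factor. The 8 regions more than 2 kb from the lower end held 1015 Luchuan and 848 Duroc reads, a ratio of 0.82 (0.69 to 0.95). Of these, 4 were 2-fold or more higher in Luchuan. The common region from 27192907 to 27193217, 6.47 kb into the gene, held 86 Luchuan and 53 Duroc reads, a ratio of 1.24 (0.75 to 1.78). Its narrower Duroc interval, from 27192950 to 27193107, held 57 and 24 reads. The widest of the 4, from 27194132 to 27194720, was called in Luchuan alone and held 207 Luchuan and 115 Duroc reads, a 2.64-fold difference (log2 ratio 1.40, 1.07 to 1.75). Its signal was thus well above nothing in Duroc, at 195 reads per kb, although the peak was called in Luchuan only.

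Toward the upper end of the gene the 2 remaining regions past 2-fold overlapped LOC106509385, a long noncoding RNA gene that shares this stretch with CD59. From 27204590 to 27205169 there were 168 Luchuan and 101 Duroc reads, a ratio of 1.29 (0.93 to 1.67), and the region was common to both breeds. Its narrower Duroc interval held 104 and 59 reads. From 27206767 to 27207028 the counts were 54 and 21, a 3.67-fold difference with a log2 ratio of 1.87 (1.17 to 2.73), which was the largest inside the gene. Reads of ATAC-seq have no strand that would separate these overlapping genes.

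The other 4 regions of the gene body lay between these and did not reach 2-fold. From 27196124 to 27196603 there were 230 Duroc and 164 Luchuan reads, a ratio of 0.07 (-0.22 to 0.37) and the lowest of the window. The widest region, from 27197320 to 27198107, held 276 and 268 reads, a ratio of 0.52 (0.27 to 0.77). Regions with a small and a large difference thus alternated within the same gene. Just under the threshold were the region from 27194900 to 27195054, with 39 Luchuan and 30 Duroc reads and a ratio of 0.92 (0.22 to 1.68), and the region from 27199827 to 27199976, with 29 and 22 reads and a ratio of 0.93 (0.11 to 1.83). This last region was called as Duroc-specific although its scaled signal was higher in Luchuan.

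The largest differences lay beyond the upper end of CD59. A first region there, from 27213279 to 27214002 inside C2H11orf91 and LOC106509385, held 329 Duroc and 308 Luchuan reads, a ratio of 0.46 (0.24 to 0.69). The 4 regions after it lay in no annotated gene, between 13.5 and 16.4 kb from CD59, and were nearer to C2H11orf91, at 5.24 to 8.15 kb. Together they held 334 Luchuan and 74 Duroc reads, a 6.66-fold difference with a log2 ratio of 2.74 (2.37 to 3.12).

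From 27220531 to 27221039 the counts were 145 Luchuan and 30 Duroc reads, a ratio of 2.79 (2.26 to 3.45). The neighbouring region from 27221189 to 27221353 held 33 and 9 reads, a ratio of 2.31 (1.34 to 3.68). Both were called in Luchuan alone. From 27223482 to 27223901 there were 130 Luchuan and 24 Duroc reads, a 7.71-fold difference and the largest of the window (log2 ratio 2.95, 2.36 to 3.69). Between them, the region from 27223007 to 27223163 held 26 Luchuan and 11 Duroc reads, a ratio of 1.71 (0.74 to 2.97), and was called as Duroc-specific against its own counts. Duroc had 54.5 to 70.1 reads per kb in these 4 regions, a signal stronger than only 3.20% to 5.60% of all regions. Luchuan had 166 to 310 reads per kb before scaling. Without these 4 regions, the summed ratio of the remaining 15 was 0.56 (0.47 to 0.65) and 4 of them were past 2-fold.

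Along the window the differences had an order. The ratio rose along the chromosome, with a Spearman rho of 0.76 between the log2 ratio and position over the 19 regions, and it fell with the Duroc signal, with a rho of -0.82 between the log2 ratio and Duroc reads per kb. The regions share the same pair of pooled libraries, and the Duroc count enters both measures of the second value, so neither carries a test. The scaled Luchuan signal was the more even of the pair along the window, as the bars of the locus plot show.

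The classes of the peak caller were divided as follows. Of the 19 regions, 10 were Luchuan-specific, 2 Duroc-specific and 7 common, where Luchuan-specific regions made up 37.5% of all specific regions. Of the Luchuan-specific regions 5 were 2-fold or more higher in Luchuan, where 34.3% of that class were in the whole table. Among the common regions it was 2 of 7, where 1% were, and among the Duroc-specific 1 of 2, where 0.202% were. Taken over the common regions alone, 1468 Luchuan and 1591 Duroc reads gave a summed ratio of 0.45 (0.34 to 0.55).

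The genes beside CD59 differed among themselves. KIAA1549L, which starts beyond the 4 intergenic regions, had 18 regions in its body with 511 Luchuan and 410 Duroc reads, a ratio of 0.88 (0.69 to 1.07). Of these, 8 were 2-fold or more higher in Luchuan, where 7.11% of all regions were. The regions were weak, with 29 to 105 reads each. Most of the 8 were Luchuan-specific, a class of which 34.3% were called in the whole table. FBXO3, which encodes a substrate receptor of a ubiquitin ligase and lies below CD59, had 7 regions with 715 Luchuan and 1198 Duroc reads, a ratio of -0.18 (-0.32 to -0.05). LMO2, a transcriptional cofactor of blood and endothelial cells, had 2 regions with 166 and 305 reads, a ratio of -0.32 (-0.60 to -0.04). The regions of FBXO3 did not share a direction, with 3 of 7 above 0. Its strongest, from 27146082 to 27147005, held 613 Duroc and 475 Luchuan reads, a ratio of 0.19 (0.02 to 0.37). By contrast, the counts of a Duroc-specific region from 27150812 to 27151267 were 306 in Duroc and 86 in Luchuan, a 2.40-fold difference in the other direction (log2 ratio -1.26, -1.63 to -0.92). The negative sum of FBXO3 rested on that region, since the other 6 gave 0.06 (-0.09 to 0.21).

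The limit of 25 kb left that region out of the CD59 window. Just outside the limit below the gene, the region from 27161393 to 27161682 held 77 Duroc and 32 Luchuan reads, a ratio of -0.69 (-1.35 to -0.09). The only regions inside the limit below the gene were 2 Luchuan-specific regions in the body of FBXO3, 5.23 and 4.79 kb from CD59. They held 30 Duroc and 23 Luchuan reads from 27181264 to 27181443, and 44 and 32 reads from 27181726 to 27181875. Their ratios were 0.17 (-0.67 to 1.01) and 0.10 (-0.60 to 0.79). Above the gene, the next region outside lay 32.9 kb away in KIAA1549L, from 27240085 to 27240288, with 29 Luchuan and 18 Duroc reads and a ratio of 1.20 (0.35 to 2.18). A window of 50 kb lowered the summed ratio of CD59 to 0.48.

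CD46, on chromosome 9 from 135025439 to 135078910, showed no such pattern. Its 13 regions covered 5553 bases and held 3595 Duroc and 2406 Luchuan reads, a summed ratio of -0.02 (-0.09 to 0.06). No region reached 2-fold in either direction. Each had at least 90 reads, and of all regions with at least 50 reads 2.4% and 5.4% reached it, so that none of 13 is near the background. The single ratios ran from -0.61 to 0.19 with a median of -0.12, and 4 of the 13 were above 0. The counting interval included 0 for 10 of them. None of the regions was Luchuan-specific, 6 were Duroc-specific and 7 were common.

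The region with the most reads spanned the upper end of CD46 and the start of the long noncoding RNA gene LOC110255546, from 135078139 to 135079424. It held 1149 Duroc and 888 Luchuan reads, a ratio of 0.19 (0.06 to 0.32), and its 893 Duroc reads per kb were above those of 98.3% of all regions. The rest of the gene body, which is 53.5 kb long, held 1 region, from 135035610 to 135035947, with 53 and 38 reads and a ratio of 0.08 (-0.56 to 0.71). Beyond the upper end, the region from 135097004 to 135097994 held 524 Duroc and 303 Luchuan reads, a ratio of -0.23 (-0.44 to -0.02).

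Most of the CD46 regions lay below the gene, on both sides of the microRNA genes MIR29B-2 and MIR29C. These 10 regions held 1869 Duroc and 1177 Luchuan reads, a ratio of -0.11 (-0.21 to 0.00). The strongest of them, from 135015096 to 135015720, held 547 and 375 reads, a ratio of 0.02 (-0.18 to 0.21). The lowest ratio of the window belonged to the region from 135013481 to 135013674, with 111 Duroc and 49 Luchuan reads and a value of -0.61 (-1.13 to -0.12). The other 8 lay between -0.28 and 0.17, and each of their intervals included 0.

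**Figure D2:**
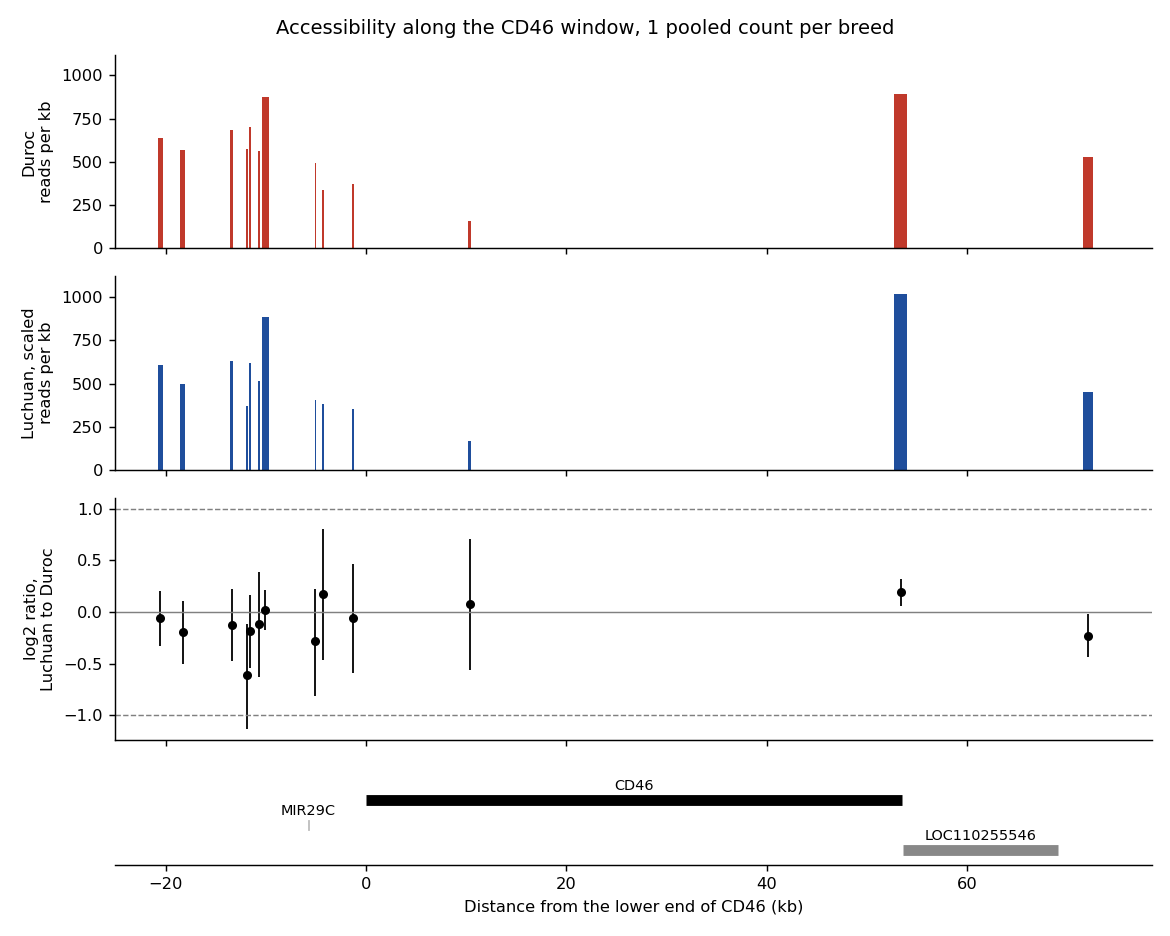
The axes, bars, points and intervals are those of the CD59 plot, with the distance measured from the lower end of CD46. All 13 log2 ratios lie between the dashed lines of 2-fold, from -0.61 to 0.19, and the bars of both breeds follow the same outline.

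CD55 lies on chromosome 9 from 67933069 to 67960380, and the table lists no interval in it or within 25 kb of it. A window without a region occurred for 1754 of the 19550 protein-coding genes, which is 8.97%. The stretch without intervals around CD55 ran from 67901869 to 68136062, over 234 kb, and also contained CR1, the gene of complement receptor 1. Of the 140010 gaps between intervals, whose median length was 5.66 kb, 0.767% were at least as long. The nearest region below CD55, at 31.4 kb, was Duroc-specific with 53 Duroc and 27 Luchuan reads and a ratio of -0.40 (-1.14 to 0.28). The nearest above, at 176 kb, was common and held 647 Duroc and 541 Luchuan reads. A peak list gives no count outside its intervals, so neither a level nor an upper limit for CD55 can be given in either breed.

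CD59 was set against all genes with the same window. Of the 9827 protein-coding genes with at least 0.5 of the reads of CD59, 8 had a summed ratio as high as that of CD59 or higher, CD59 included, or 0.0814%. With the gene body alone it was 21 of 4636 genes, and with 50 kb on both sides 31 of 10089. The middle 95% of these genes ran from -0.40 to 0.29, with a median of -0.05, and CD46 was above 57.3% of them. At least 8 regions past 2-fold in Luchuan were found around 71 genes, or 0.363%, whose median length was 471 kb. Only 3 of these were among the 9796 genes no longer than CD59, namely CD59 itself, C2H11orf91, whose window overlaps that of CD59, and PDK4. C2H11orf91 was also among the 8 genes above, at 0.90 from 1878 Luchuan and 1484 Duroc reads. CD59 thus did not have the highest summed ratio of its own neighbourhood. The 4 intergenic regions lie in both windows and are nearer to C2H11orf91. CD59 was chosen for this contrast, so its place in this order is a description.

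**Figure D3:**
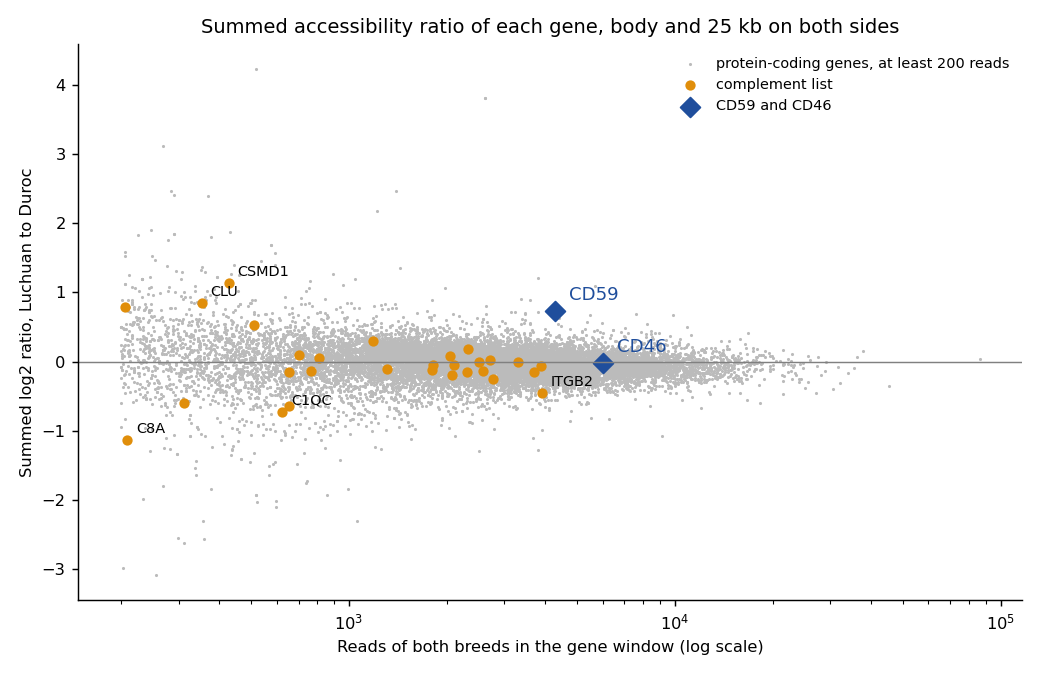
Each point is a protein-coding gene with at least 200 reads, the x axis gives the reads of both breeds in its body and 25 kb on both sides on a log scale, and the y axis the summed log2 ratio of Luchuan to Duroc. CD59 (0.73) lies above nearly all genes of its depth, CD46 (-0.02) lies in their middle, and the complement genes (orange) spread most where reads are few.

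The genes whose summed ratio was nearest to that of CD59 were PDE1C, a calcium-dependent phosphodiesterase, PCDH15, a protocadherin, and AMPD3, an AMP deaminase. Likeness was the absolute difference of the summed log2 ratios over the same pair of pooled libraries, with windows that overlap that of CD59 left out. PDE1C had a ratio of 0.72 (0.63 to 0.81) with 9 of 25 regions past 2-fold in Luchuan. PCDH15 had 0.72 (0.62 to 0.82) with 12 of 31, and AMPD3 had 0.71 (0.61 to 0.81) with 5 of 13. None of their regions was past 2-fold in Duroc. Over all regions the shares were 7.11% for Luchuan and 5.7% for Duroc. Their counting intervals overlapped that of CD59, so the order among these 4 genes was not resolved.

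The remaining complement genes were taken as a list of 41 symbols by role, of which 35 matched 36 gene entries, C4BPA being present as 2. The symbols that did not match were not analysed here. The 164 regions of the list held 26876 Duroc and 17336 Luchuan reads, a summed ratio of -0.07 (-0.10 to -0.04). Of these regions 17 were 2-fold or more higher in Luchuan and 11 in Duroc, next to 7.11% and 5.7% in the whole table. Thus 60.7% of the calls were higher in Luchuan, or 50% when the clean reads set the factor and 9.38% without scaling. Of the 130 with at least 50 reads, 8 were higher in Luchuan and 9 in Duroc, where 2.4% and 5.4% of all regions of that depth were. The median ratio over the list's genes was -0.05, the same to 2 decimals as that of the 9827 deeper genes.

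The 47 regions of the soluble and membrane inhibitors gave a summed ratio of 0.08 (0.02 to 0.13). Of these, 11 were 2-fold or more higher in Luchuan and 2 in Duroc, where the shares of all regions were 7.11% and 5.7%. Of the 36 with at least 50 reads it was 8 and 2, where the shares were 2.4% and 5.4%. All 11 calls for Luchuan were Luchuan-specific regions, a class of which 34.3% were called in the whole table. They lay in the windows of CSMD1, SUSD4 and CLU alone, and not all inside these genes. CSMD1, a very long gene for a membrane inhibitor, had the highest summed ratio of the list, 1.13 (0.84 to 1.42), from 255 Luchuan and 172 Duroc reads in 7 regions. CLU encodes clusterin, which like CD59 acts on the terminal complex, and had 0.85 (0.54 to 1.16) from 194 and 159 reads. In CLU the region past 2-fold with at least 50 reads, from 11349655 to 11349868 on chromosome 14, held 42 Luchuan and 27 Duroc reads. Both genes thus rested on far fewer reads than CD59. SUSD4 had regions past 2-fold in both directions, 4 in Luchuan and 2 in Duroc. Its summed ratio was below 0, at -0.15 (-0.24 to -0.05) from 2289 Duroc and 1401 Luchuan reads. Its Duroc-specific region on chromosome 10 from 19460424 to 19461279 held 403 Duroc and 53 Luchuan reads, a ratio of -2.35 (-2.81 to -1.95). CFI, the protease that CD46 assists, had 0.18 (0.06 to 0.30). The window of CR1 had 0.30 (0.14 to 0.47), from 1 region beyond its end that overlaps the lower end of another gene, LOC100736569. The body of CR1 held no interval, so this is no value of the gene itself. For SERPING1, VTN, C4BPA and C4BPB the intervals included 0, and VSIG4 had no region.

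The genes that start and amplify the cascade differed in direction. C1QA, C1QB and C1QC, which encode the chains of this recognition molecule and are made by macrophages, lie side by side on chromosome 6 and share regions. Their summed ratios were -0.60 (-0.96 to -0.25), -0.64 (-0.89 to -0.40) and -0.72 (-0.98 to -0.47). The shared Duroc-specific region from 80585938 to 80586419, beside the end of C1QA, held 119 Duroc and 37 Luchuan reads, a ratio of -1.11 (-1.70 to -0.58). CFD, C2 and CFP were also below 0, at -0.19 (-0.32 to -0.06), -0.16 (-0.28 to -0.03) and -0.14 (-0.26 to -0.03). In the other direction, C1R, a protease that C1q binds, had 0.53 (0.28 to 0.79). MBL2, a lectin that starts the cascade, had 0.79 (0.38 to 1.20) from only 111 Luchuan and 95 Duroc reads. For C1S, MASP1, MASP2, CFB and C4A the intervals included 0. C3, the central component, had -0.01 (-0.11 to 0.09) from 1978 Duroc and 1334 Luchuan reads. The summed ratio of this role was -0.06 (-0.11 to -0.02), with 38 of its 64 regions below 0. Of all 64 regions of this role 4 were past 2-fold in Luchuan and 2 in Duroc, where 7.11% and 5.7% of all regions were. The 4 had fewer than 50 reads each.

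Of the genes for the components of the pore that CD59 blocks, most had few regions or none. C6 and C8B had no region, and C9, the subunit that CD59 holds back, had 2 regions with 54 Duroc and 52 Luchuan reads and a ratio of 0.51 (-0.07 to 1.08). C7 had 0.48 (0.05 to 0.91) from 95 and 90 reads. C8A had the lowest summed ratio of the list, -1.14 (-1.63 to -0.67), which came mostly from a Duroc-specific region 23.1 kb beyond the gene, from 155553383 to 155553829, with 127 Duroc and 33 Luchuan reads. C5 held most reads of this role, 1109 and 689, with a ratio of -0.13 (-0.26 to 0.01).

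Among the receptors for complement fragments, the window of ITGB2, the shared chain of the leukocyte integrins, was lower in Luchuan. It held 2616 Duroc and 1291 Luchuan reads, a ratio of -0.46 (-0.55 to -0.36). Of its 9 regions 4 were past 2-fold in Duroc, where 5.7% of all regions were. Only 1 of the 4 lay in ITGB2, from 207526570 to 207527068 on chromosome 13, with 133 Duroc and 44 Luchuan reads. The others lay 22.7 to 23.7 kb from ITGB2 and were nearer to PTTG1IP. The strongest of them, from 207491190 to 207492019, held 567 Duroc and 130 Luchuan reads at 22.7 kb. ITGAM, the chain that joins ITGB2 in complement receptor 3, had -0.07 (-0.16 to 0.03). A region of its window, inside TRIM72 and 21.2 kb from ITGAM, was past 2-fold with 76 Duroc and 23 Luchuan reads. C5AR1 had -0.26 (-0.37 to -0.15), and for C3AR1 and C5AR2 the intervals included 0.

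The GPI anchor that holds CD59 and CD55 is built and attached by enzymes encoded by PIGA, PIGM, PIGO, PIGT, GPAA1 and PGAP1. Their 44 regions held 12196 Duroc and 8449 Luchuan reads, a summed ratio of 0.03 (-0.01 to 0.07). None was past 2-fold in either direction, where 7.11% of all regions were in Luchuan and 5.7% in Duroc. PGAP1, which remodels the anchor, had the highest ratio of these genes, 0.41 (0.26 to 0.56), and GPAA1, part of the transamidase that attaches it, the lowest, -0.12 (-0.20 to -0.04).

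**Figure D4:**
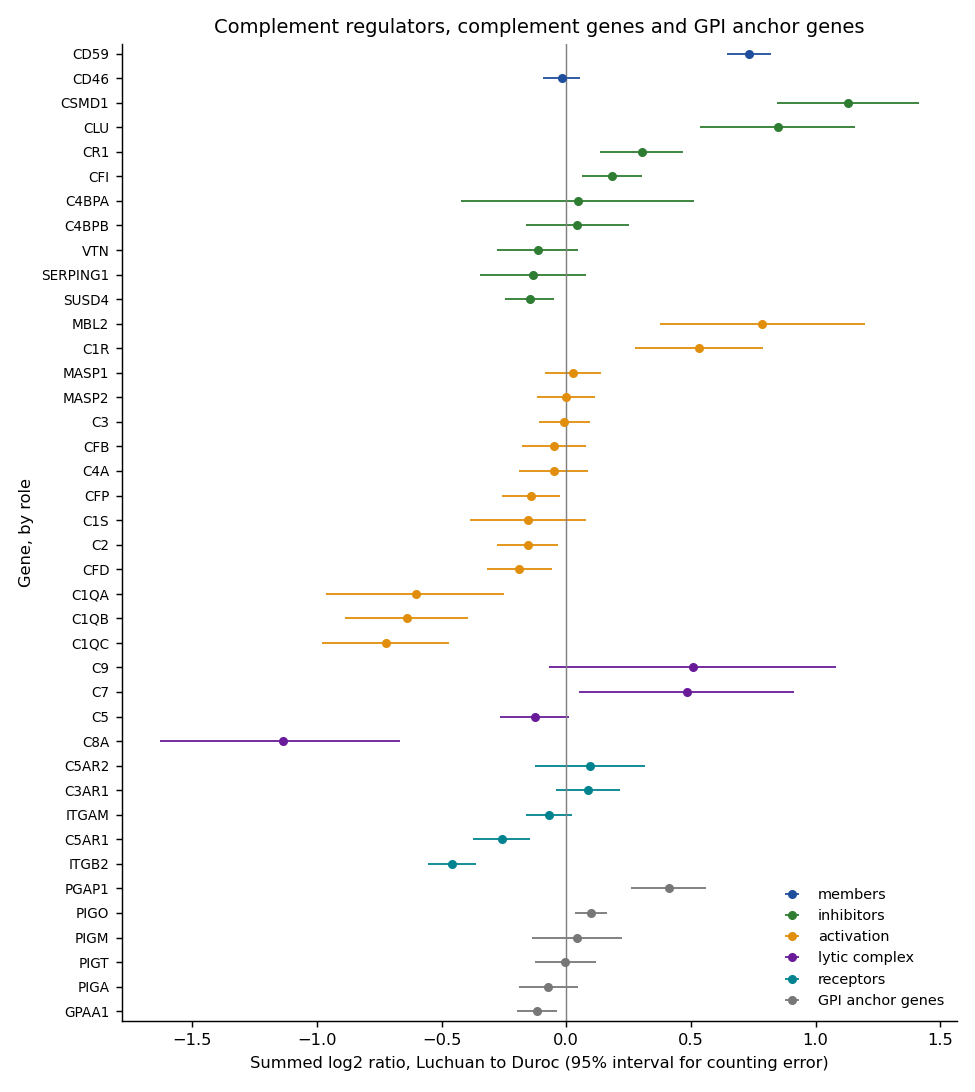
Summed log2 ratio of Luchuan to Duroc with the 95% interval for counting error, for CD59, CD46, the complement genes by role and the GPI anchor genes with at least 50 reads. CD59 (0.73) lies above CD46 (-0.02) and the GPI anchor genes, and below CSMD1 (1.13), CLU (0.85) and MBL2 (0.79), which have fewer reads. C1QA, C1QB, C1QC and ITGB2 lie below 0, and the widest intervals belong to genes with few reads.

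Markers of the cell types in muscle were summed over the same windows. The fiber genes were lower in Luchuan, at -0.23 (-0.25 to -0.21), with 76 of their 88 regions below 0. For endothelium (PECAM1, CDH5, VWF, TIE1 and TEK) the summed ratio was -0.05 (-0.14 to 0.03). Of the 31 regions 3 were past 2-fold in Luchuan and 1 in Duroc, where 7.11% and 5.7% of all regions were. The 3 held only 15 to 23 reads each. Leukocyte genes (PTPRC, CD3E, CD79A, CSF1R and CD68) had -0.03 (-0.08 to 0.03), and fibroblast genes (COL1A1, COL3A1, PDGFRA and DCN) 0.04 (-0.04 to 0.12). Adipocyte genes had -0.17 (-0.24 to -0.09), which rested on LEP, the leptin gene, at -0.96. PLIN1, CIDEC and ADIPOQ were at 0.24, 0.13 and 0.06, and these 3 genes without LEP gave 0.16 (0.07 to 0.25). Hepatocyte genes (ALB, TTR, FGB and APOA1) had 0.05 (-0.08 to 0.17), with 3 of 8 regions past 2-fold in Luchuan, where 7.11% of all regions were, and only the ALB region among them had at least 50 reads. None of these 6 summed ratios was as high as that of CD59, although the single genes TEK, TTR and ALB were at 0.79 or above from at most 165 reads each. The part of cell makeup in its value was not tested. The reference genome comes from a Duroc pig, and its part in the counts of either breed was not tested.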

How the data were processed

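ATAC-seq of longissimus dorsi muscle from 3 Duroc and 3 Luchuan boars was analysed, and the mRNA libraries were not. Trimmomatic was used by the authors for read filtering and Bowtie2 for alignment to Sscrofa11.1, and MACS2 is named as the peak caller. Removal of duplicate reads, the shift for the transposase, the pooling of animals and the tool that compared the breeds are not given in the sources used here. The authors deposited whole-number read counts without scaling for depth, in 1 column per breed that names no animal. They were read as pooled over the boars. The authors also deposited a log2 ratio of the breeds and an average log2 signal, both rescaled, and a p-value per interval. These columns hold the study's own comparison and were not used. Peaks were called per breed, so weak regions entered through the breed in which they were called, which favours that breed's count there.

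Deposited starts count from 0, which makes the shortest interval 150 bases long, and were raised by 1. Common intervals that overlapped or touched were treated as 1 region and the longest stood for it. Luchuan counts were multiplied by 1.48, and 1 read was added to each count for single regions and none for sums. A region was called at 2-fold. The fold alone was used because a single count per breed allows no test, and the count models for replicates were not run. Regions of fewer than 50 reads in all reach 2-fold more often through counting error. The RefSeq table of Sscrofa11.1 gave the positions of 19550 protein-coding genes, without strand. All 3 members matched by symbol. MB did not match.

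The members, windows and lists were chosen with earlier results of these data known. The rule for named genes took the members and their neighbours, the list genes with a region of at least 50 reads past 2-fold, the highest and lowest summed ratio among list genes with at least 200 reads, and the 3 genes nearest to CD59. Other genes of the complement list, such as C1R, MBL2, C3, CFI, CR1, C7 and C5AR1, were named outside this rule and without a fixed criterion. The C2H11orf91, PDK4, KIAA1549L and LMO2 values, the grouping of regions by position and the sums of FBXO3 and the adipocyte genes without a region or gene were chosen after values had been seen. The steps were tested on simulated counts. Alternatives covered the scaling, the merging, the window, the fold, the minimum of reads and the pseudocount. Counts were handled in pandas 2.3.3 under Python 3.11.15. SciPy 1.17.1 gave the intervals, with NumPy 2.4.6, and Matplotlib 3.10.9 drew the plots. No genome sequence was used here, so no motif was searched.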

Additional observations from a re-analysis of the deposited data

How the results depend on the processing

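No paired analysis was possible because the counts are pooled by breed, so replicates could not be left out either, and CD55 has no region in windows up to 25 kb, while 50 kb would take in the Duroc-specific region of 27 Luchuan and 53 Duroc reads. The summed log2 ratio of CD59, 0.73, stayed above 0 under every alternative run. It was 0.54 with the clean reads of the libraries, 0.17 without scaling, 0.61 with every interval as listed, 0.59 with the gene body alone and with 2 kb on both sides, and 0.48 with 50 kb. With the alternatives added after seeing the data it was 0.45 over common regions and 0.56 without the 4 intergenic regions. The number of CD59 regions past the threshold, 8, became 5 at 3-fold, 4 with the gene body, with 2 kb or without the intergenic regions, and 5 without scaling, where 10 of 19 were higher in Luchuan. The ratio of CD46, -0.02, moved to -0.21 with the clean reads and -0.58 without scaling, and above 0 to 0.17 with 2 kb and 0.18 with the gene body alone. Those scalings shifted the median of all regions by -0.19 and -0.55, and every ratio is read against that shift. Other scalings moved it by at most 0.04.

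Over all regions the calls, 9960 for Luchuan and 7987 for Duroc, became 2944 and 2166 at 3-fold, 21253 and 20943 at 1.5-fold and 3501 and 28942 without scaling. Calls for Duroc rose to 12237 with the clean reads, and those for Luchuan fell to 2453 with at least 50 reads. The share of calls higher in Luchuan, 55.5%, was 36.1% with the clean reads, 42.7% with a factor by signal 10.8% without scaling and 30.8% with at least 50 reads. For the complement list, 17 and 11, the calls became 3 and 3 at 3-fold, 39 and 20 at 1.5-fold, 3 and 29 without scaling, 11 and 5 with 2 kb, and 10 and 4 with the gene body. With at least 50 reads its calls for Luchuan were 8. None of the called regions of CD59 changed sign under a scaling or pseudocount. At the main setting, the counting interval lay above 0 for 12 of the 19 regions of CD59 and included 0 for 7. For CD46 it lay above 0 for 1 of 13, below 0 for 2 and included 0 for 10.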
